A study of Homo sapiens with 4 samples.

Results

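The response of MCF12A cells to ethanol was set against their response to acetaldehyde, gene by gene. MCF12A is an established, non-tumorigenic human breast epithelial line, and all 4 cultures grew on plastic in medium that held horse serum, insulin, hydrocortisone, cholera toxin and epidermal growth factor. Control 1 was the unexposed culture of the ethanol experiment and was compared with cells kept for 1 week in 25 mM ethanol. Control 2 was the unexposed culture of the acetaldehyde experiment and was compared with cells kept for 1 week in 2.5 mM acetaldehyde. The doses thus differ, and differences in size between the responses belong to these doses. All 4 samples of the series were used, with 1 array (Affymetrix Human Gene 1.0 ST) in each group. Of 18417 genes named by a probe set of their own, 10373 were bright enough on at least 1 array to be kept.

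Ethanol is oxidised to acetaldehyde by alcohol dehydrogenases, CYP2E1 and catalase, and acetaldehyde is oxidised to acetate by aldehyde dehydrogenases. Acetaldehyde is reactive and forms adducts with proteins and DNA. A response common to both compounds can therefore be looked for beside responses to each alone.

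The quantities used throughout are on the log2 scale, where 1 unit is a 2-fold difference. The ethanol difference is the ethanol array minus control 1. The acetaldehyde difference is the acetaldehyde array minus control 2. The response difference is the ethanol difference minus the acetaldehyde difference, so it is negative where the ethanol difference was the lower of the pair. The control gap is control 2 minus control 1. The ethanol and acetaldehyde differences share no array, whereas the response difference and the control gap share both controls. With 1 array per group there is no replicate error, no test was made, and each value describes these arrays.

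The distributions of values matched closely within each experiment and not between experiments. Their mean distance was 0.0398 and 0.0268 log2 units within the ethanol and acetaldehyde pairs and 0.270 to 0.285 across them. Cultures and array processing cannot be told apart as sources of a gap between the experiments. The controls were at least 2-fold apart for 944 genes, of which 503 (4.85%) were lower and 441 (4.25%) higher in control 2. The SD of the control gap over all kept genes was 0.67, larger than the SD of the ethanol difference (0.46) and of the acetaldehyde difference (0.21). Epithelial markers were bright: all 9 found on the arrays were kept, with summed intensities of 27108 to 33355 per array. None of 4 endothelial and 3 adipocyte markers was kept, and of 7 fibroblast markers only COL1A1 and DCN were, with the list's summed intensity at 481 to 942. Of 5 immune markers on the arrays CD14 and CD68 were kept, while PTPRC, which marks all leukocytes, lay between 10.3 and 15.9 on the 4 arrays.

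The responses ran in the same direction more often than not, and ethanol gave the larger one. Across 10373 genes the ethanol and acetaldehyde differences correlated with r = 0.388 and rho = 0.350, a description across genes that are not independent and that share the processing of their arrays. The sign was the same for 6458 genes (62.3%). Among the 7484 genes whose controls lay within 1.5-fold of each other, here called start-matched, r was 0.419 and the sign agreed for 63.2%. Leaving out the squamous differentiation list gave r = 0.369, and restricting to genes under 2-fold with ethanol gave 0.315. r thus stayed positive without the genes that differed most.

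The size of the acetaldehyde difference went with that of ethanol at both ends. The 91 genes lower by 2 or more log2 units with ethanol had a median acetaldehyde difference of -0.39, and 85.7% of them lay below control 2. The 128 genes lower by 1 to 2 units had a median of -0.27, and in the 6433 genes within 0.25 of 0 the median was 0.00. The 121 genes higher by 1 or more had a median of 0.14, with 29.8% below control 2. Start-matched genes followed the same order, with a median of -0.41 over 30 genes in the second of these groups and 0.15 over 49 genes in the last.

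**Figure D1:**
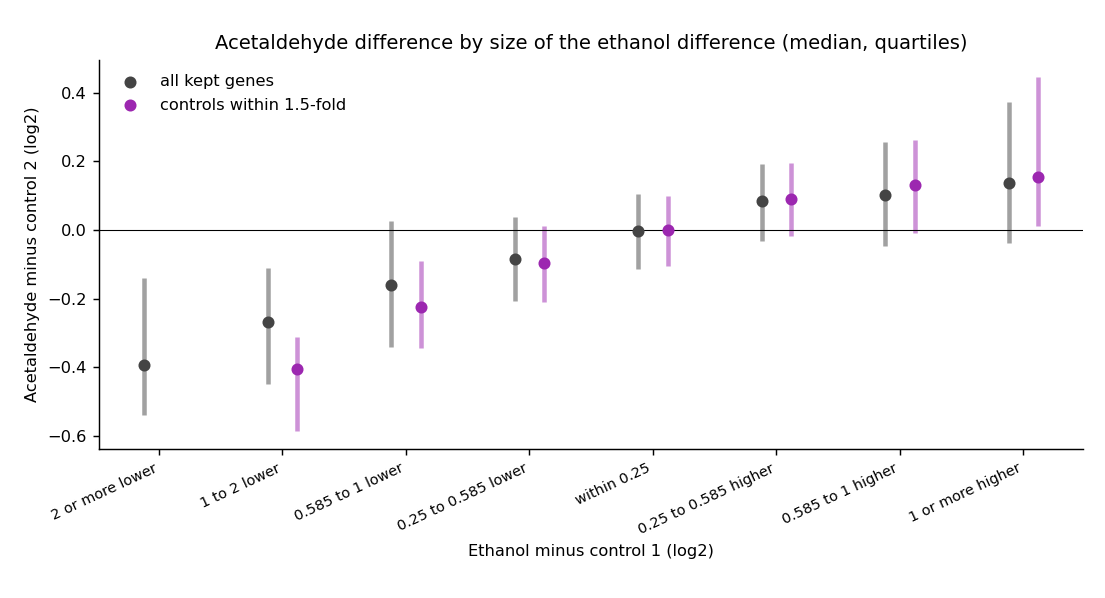
Acetaldehyde minus control 2 (log2, vertical axis) for genes grouped by ethanol minus control 1 (log2, horizontal axis); points are medians, bars run from the lower to the upper quartile, grey for all kept genes and purple for genes whose controls lie within 1.5-fold, with groups under 20 genes left out. The medians run from -0.39 at the left end to 0.14 at the right end, far smaller than the ethanol differences they are grouped by.

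Genes were then sorted by what both arrays showed. A gene counted as shared where both differences were at least 1.5-fold in the same direction. It counted as ethanol-only or acetaldehyde-only where one difference was at least 1.5-fold and the other within 0.25 log2 units of 0, and as opposed where both were at least 1.5-fold with opposite signs. There were 59 shared lower genes (0.569% of those kept), 28 shared higher (0.27%), 584 ethanol-only (5.63%), 34 acetaldehyde-only (0.328%) and 7 opposed (0.0675%). The ethanol-only genes were 211 lower (2.03%) and 373 higher (3.6%), and the acetaldehyde-only genes 14 lower (0.135%) and 20 higher (0.193%). Of the opposed genes 2 were higher with ethanol (0.0193%) and 5 higher with acetaldehyde (0.0482%). For comparison, 438 genes (4.22%) were at least 1.5-fold lower and 564 (5.44%) at least 1.5-fold higher with ethanol. With acetaldehyde the counts were 101 (0.974%) and 77 (0.742%). The 59 shared lower genes were thus most of the 101 lower with acetaldehyde and a small part of the 438 lower with ethanol. At 2-fold, 219 genes (2.11%) were lower and 121 (1.17%) higher with ethanol, against 22 (0.212%) and 3 (0.0289%) with acetaldehyde.

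**Figure D2:**
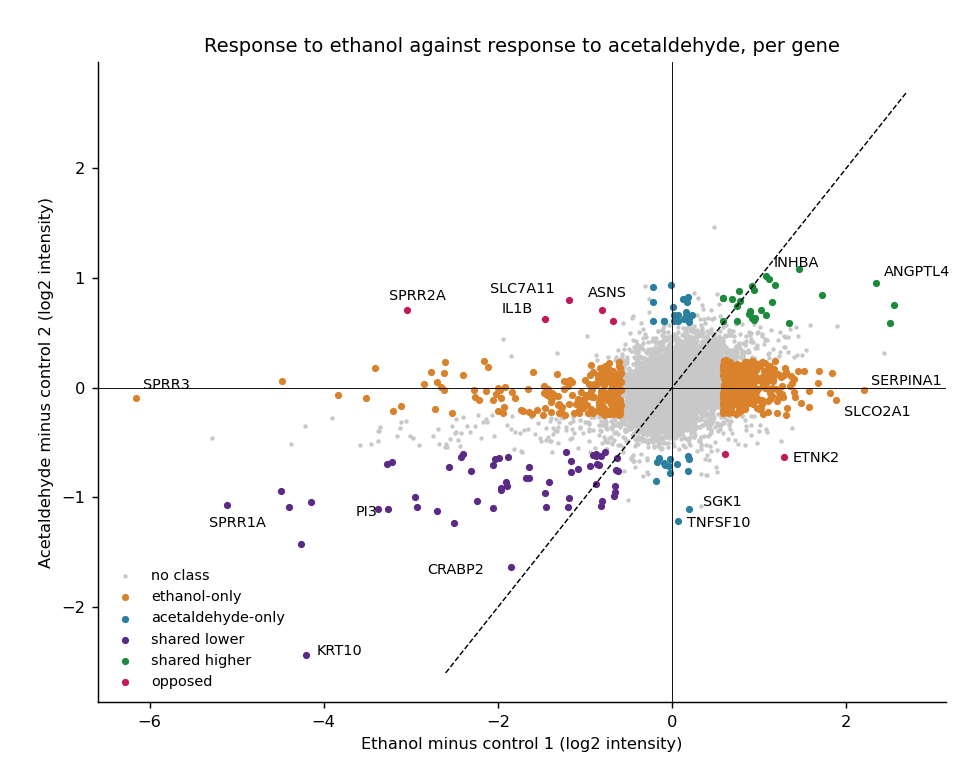
Each point is 1 of 10373 genes, with ethanol minus control 1 (log2 intensity) on the horizontal and acetaldehyde minus control 2 (log2 intensity) on the vertical axis; colours give the class and the dashed line marks equal responses. Shared lower genes such as KRT10 (-4.20, -2.44) lie mostly above the dashed line, while INHBA (1.08, 1.02) and CRABP2 (-1.85, -1.63) lie near it.

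The shared lower genes included 12 of the 33 kept genes of the squamous differentiation list, which covers keratins and envelope genes of stratified epithelia. These tissues renew from basal cells, which leave the basal layer, switch keratins and build a crosslinked envelope from small proline-rich proteins and involucrin. KRT10, the keratin of suprabasal cells, had an intensity of 1298 in control 1 and 70.5 with ethanol, then 1571 in control 2 and 290.0 with acetaldehyde. Both exposed arrays lay below both controls, which themselves differed by only 1.21-fold. KRT16, a keratin of stressed and hyperproliferative epidermis, read 4267, 750.3, 2743 and 1164 in the same order. PI3, the elastase inhibitor elafin, read 5416, 562.9, 4120 and 1911. In each of these genes the exposed arrays were below both controls, and ethanol gave the lower value.

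Some shared lower genes differed by nearly the same amount with both compounds. CRABP2, which carries retinoic acid to its receptors, read 734 in control 1 and 203 with ethanol, then 341 in control 2 and 110.0 with acetaldehyde. These are 3.61-fold and 3.10-fold decreases from different starting levels. PLXDC2, a plexin-domain transmembrane protein, had differences of -1.19 and -1.08, and PGLYRP4, a peptidoglycan recognition protein, read 154, 68.1, 226 and 113. PGLYRP4 reached the filter intensity on control 2 alone, and so had to read lower with acetaldehyde. In all, 14 of the 59 shared lower genes had responses within 0.25 of each other, and in 50 of 59 ethanol had the larger difference.

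Regulators of epithelial differentiation were in this class too. ZNF750, a zinc finger factor of late epidermal differentiation, differed by -2.93 with ethanol and -1.09 with acetaldehyde. The homeobox factor DLX5 differed by -2.06 and -1.09, and GRHL3, a grainyhead factor needed for barrier formation, by -1.65 and -0.82. EHF, an epithelial ETS factor chosen after its values were seen, was at -3.28 and -0.69. The start-matched regulator OVOL1 stood at -1.66 and -0.37, so its acetaldehyde difference missed the 1.5-fold limit. IL1RN, the interleukin-1 receptor antagonist, differed by -2.70 and -1.13, but control 2 (150 intensity units) was already 12.3-fold below control 1 (1846).

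The shared higher genes were fewer and of mixed function. INHBA, the subunit of activin A, read 230.0 in control 1 and 487 with ethanol, then 199.6 in control 2 and 404 with acetaldehyde. Both exposed arrays were above both controls, and the responses were 2.12-fold and 2.03-fold. THBS1, the matrix protein thrombospondin 1, read 2401, 5193, 1045 and 2079, so the acetaldehyde value lay below control 1. AOX1, an aldehyde oxidase, read 138, 263, 213 and 397, with a response difference of 0.04. ANGPTL4, a secreted lipoprotein lipase inhibitor, was higher with both but by 5.08-fold against 1.94-fold, at 438, 2225, 633 and 1228. Of the 28 genes, 15 had responses within 0.25 of each other.

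Further members of this class were the cytokine IL24 (1.72 and 0.84), TFPI2 (2.55 and 0.75), the ecto-nucleotidase NT5E (1.02 and 0.71) and the small Cajal body RNAs SCARNA9 (1.46 and 1.08) and SCARNA9L (1.19 and 0.93). IL24 reached the filter intensity on the acetaldehyde array alone, and so had to read higher with acetaldehyde. Small Cajal body RNAs guide the modification of spliceosomal RNAs. SCARNA9 and SCARNA9L are close copies whose signals cannot be separated with certainty, and the other probe set of SCARNA9 stood at 0.67 and 0.82. TFPI2, a protease inhibitor of the matrix, had a control gap of 3.56, so its exposed values of 1193 and 4033 do not both exceed both controls.

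**Figure D3:**
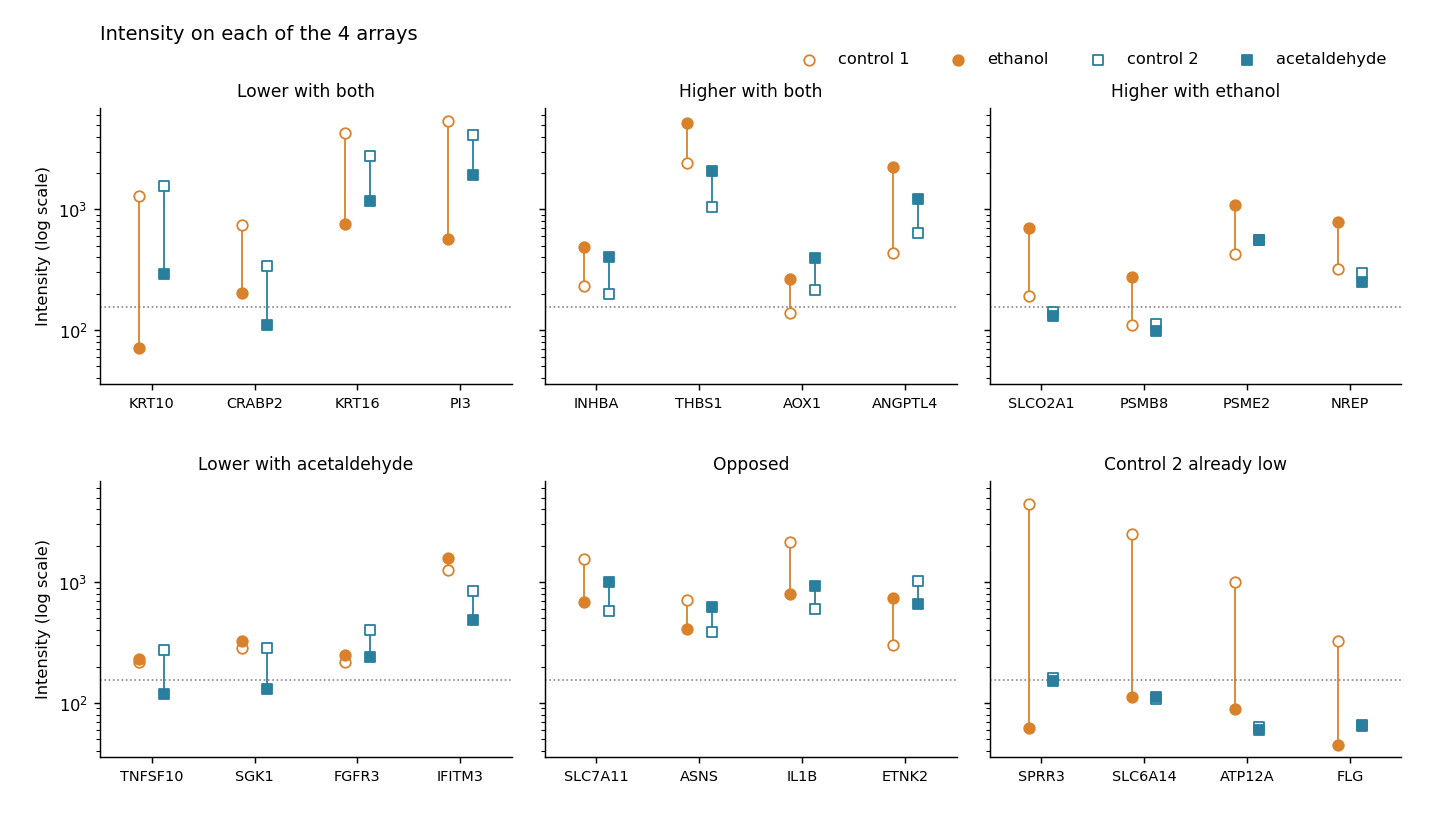
Intensity on a log axis for 24 genes in 6 panels, with control 1 and ethanol as open and filled circles and control 2 and acetaldehyde as open and filled squares; each point is 1 array and the dotted line is the filter intensity of 155. KRT10 is lower in both pairs, PSMB8 is higher on the ethanol array only, and SPRR3 starts at 4404 in control 1 and at 162 in control 2.

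The response difference reached -1 or lower for 184 genes (1.77% of those kept) and 1 or higher for 114 (1.1%). Genes on either side of the limit differed little, with TMPRSS13 just inside and CYTL1 (-0.99) just outside. At the positive end, control 2 was at least 2-fold above control 1 in 51 of the 114 genes (44.7%). At the negative end stood the envelope genes, led by SPRR3, with a response difference of -6.06. Of the 33 kept genes of the squamous differentiation list, 29 were at -1 or lower and 0 at 1 or higher, and the median was -1.92 against 0.05 over all kept genes. All 33 were lower with ethanol and 28 were lower with acetaldehyde, with medians of -2.51 and -0.48. Of the 33, 4 reached the filter intensity on control 1 alone, FLG and SPRR2A among them, and so had to read lower with ethanol. Of the 26 kept by their mean level, 25 had a response difference of -1 or lower, with medians of -2.55 with ethanol and -0.52 with acetaldehyde.

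The controls bear directly on this end. In 141 of the 184 genes (76.6%) control 2 was at least 2-fold below control 1, against 4.85% of all kept genes, and in 86 control 2 lay below the filter intensity of 155. SPRR3, a small proline-rich envelope protein, read 4404 in control 1 and 61.8 with ethanol, then 162 in control 2 and 152 with acetaldehyde. Only control 1 was high, and the unexposed array of the other experiment was 27.2-fold below it. SLC6A14, an amino acid transporter, read 2492, 112, 108 and 113, so the ethanol, control 2 and acetaldehyde arrays were alike. ATP12A, a proton pump of surface epithelia, read 1008, 88.4, 63.4 and 59.5, and the filament-aggregating protein FLG read 326, 45.1, 64.4 and 66.0. For such genes the small acetaldehyde difference was measured from a low starting level, and a lack of response cannot be told apart from a transcript that was already low. SLC6A14, ATP12A and FLG reached the filter intensity on control 1 alone, and so were kept only because they were high there.

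Within the small proline-rich family the members did not differ alike. SPRR1A read 7795, 225, 1581 and 752, and SPRR1B read 6129, 291, 2282 and 1077, so both were about 2-fold lower with acetaldehyde. SPRR2A, in contrast, read 496, 60.0, 47.5 and 77.3, with an acetaldehyde difference of 0.70 at intensities below the filter value. The SPRR2 genes are close copies, so signal may be split between them. The serpin SERPINB3 read 2243, 211, 754 and 856, with an ethanol difference of -3.41 and an acetaldehyde difference of 0.18.

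The sequences before the start sites of SPRR1A and SPRR3, neighbours in the epidermal gene cluster on chromosome 1, are shown because both transcripts were far lower with ethanol, while their acetaldehyde differences were -1.07 and -0.09. They are the 250 bases before the RefSeq gene start (GRCh38.p14, plus strand), at chr1:152983831-152984080 and chr1:153001499-153001748, with capitals marking TGANTCA, the letters of an AP-1 site, which both contain.
SPRR1A: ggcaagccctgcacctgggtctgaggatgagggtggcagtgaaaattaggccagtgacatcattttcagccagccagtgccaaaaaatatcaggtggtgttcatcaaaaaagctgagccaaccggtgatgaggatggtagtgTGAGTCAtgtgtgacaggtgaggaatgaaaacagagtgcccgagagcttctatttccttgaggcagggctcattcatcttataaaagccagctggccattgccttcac
SPRR3: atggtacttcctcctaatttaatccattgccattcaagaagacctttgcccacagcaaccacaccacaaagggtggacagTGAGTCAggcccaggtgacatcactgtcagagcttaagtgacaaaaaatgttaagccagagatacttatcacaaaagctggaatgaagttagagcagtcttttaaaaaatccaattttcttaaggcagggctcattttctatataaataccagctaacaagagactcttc
The match lies 108 bases before the start in SPRR1A and 170 bases before it in SPRR3. Searching both strands, 11 of the 26 squamous list genes with a promoter in the table (42.3%) held TGANTCA, against 5.99% of the 8393 kept genes with one and 6.57% of all 35116 promoters there. A match of letters is a description and not a binding site.

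**Figure D4:**
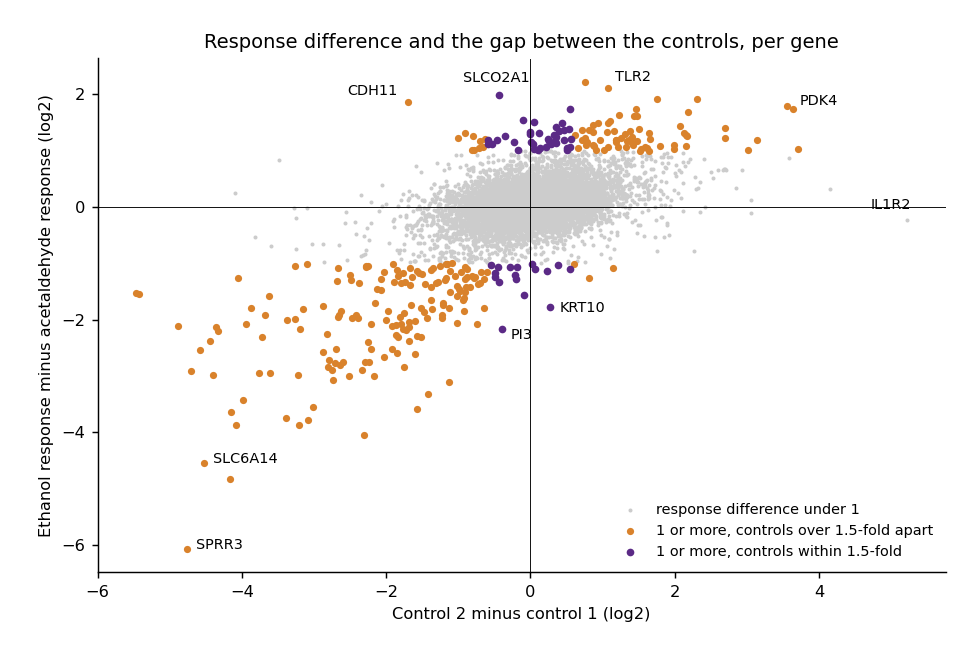
Response difference (log2, vertical axis) against the control gap, control 2 minus control 1 (log2, horizontal axis), for 10373 genes; purple and orange points have a response difference of at least 1 in size, with controls within or beyond 1.5-fold. Both axes contain both controls, so a slope is built in; most of the 184 genes at the lower end lie far to the left, and 17 of them are start-matched.

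Genes that started from like levels gave a different balance. Of 7484 start-matched genes, 17 had a response difference of -1 or lower (0.227%) and 37 of 1 or higher (0.494%). The lowest were PI3 (-2.16) and KRT10 (-1.77), both lower with each compound and more so with ethanol. CA2, a carbonic anhydrase, read 1153 in control 1 and 310.2 with ethanol, then 1083 in control 2 and 857 with acetaldehyde. IL1A, the interleukin-1 alpha cytokine, was at -0.95 and 0.11, and the Notch target NRARP at -1.37 and -0.36.

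Start-matched genes higher with ethanol included a transporter of prostaglandins and a group of antigen-processing genes. SLCO2A1, the prostaglandin transporter, read 190.4 in control 1 and 704 with ethanol, then 141 in control 2 and 130.4 with acetaldehyde, and only the ethanol array stood out. NREP, a neuronal regeneration-related protein, read 318, 786, 297 and 250. NNMT, the nicotinamide methyltransferase, read 957, 2043, 1296 and 978. GMPR, the guanosine monophosphate reductase, had the second highest value of this set at 1.74, from intensities of 165, 390.4, 240.2 and 171. Other such genes were FADS1, a fatty acid desaturase (1.31 and 0.15), the coagulation inhibitor TFPI (1.29 and 0.18) and the metal-binding MT1F (2248, 5041, 3193 and 3477 in the order above).

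PSMB8, PSME2, PARP14 and APOL6, all genes known to respond to interferon, were among the 10 highest start-matched genes, but PSMB8 and APOL6 reached the filter intensity on the ethanol array alone and so could be kept only where they were high there. PSMB8, a catalytic subunit of the immunoproteasome, read 109 in control 1 and 273 with ethanol, then 113 in control 2 and 98.9 with acetaldehyde, and its 3 probe sets hold the same values. PSME2, a subunit of the proteasome activator, read 424, 1086, 556 and 560. A list of 17 antigen-processing genes was then drawn up, after these values were seen, of which 9 were kept, and of these PSMB8, PSMB9 and ERAP1 were kept through the ethanol array alone. The medians over the 9 were 0.90 with ethanol and -0.13 with acetaldehyde. Over the 6 kept by their mean level they were 0.78 and -0.14. The peptide transporter TAP1 differed by 0.67 and -0.15, B2M, the light chain of class I molecules, by 0.90 and 0.21, and TAPBP by 0.94 and -0.26. The control gap of PSMB8, PSMB9, PSME1, B2M and ERAP1 lay between -0.11 and 0.06, and their response differences were 0.69 to 1.51. ERAP1, which trims peptides for class I molecules, was higher with both (1.30 and 0.46), and TAPBP was the only member of the 9 whose controls were over 1.5-fold apart.

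The wider list of interferon-stimulated genes had smaller medians. Of its 10 kept genes 7 were higher with ethanol and 6 lower with acetaldehyde, with medians of 0.24 and -0.21. IFITM3, a membrane protein that restricts viral entry, read 1256, 1581, 838 and 486, and was the only one with a response difference of 1 or more (1.12). OAS1, which makes the activator of RNase L, was lower with both (-1.15 and -0.38). No list gene exceeded 1.5-fold upward with acetaldehyde. Only 0.742% of all kept genes did, and 1.1% had a response difference of 1 or more, so these counts do not set the list apart. Of the 10 genes, 1 was kept through the ethanol array alone and 1 through the acetaldehyde array alone.

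The promoters of PSME2 and B2M are shown because their transcripts were higher with ethanol at matched control levels. Capitals mark the repeat of interferon-response elements, which is GAAA, any 2 bases and GAAA again, in the 250 bases before the start of PSME2 (GRCh38.p14, chr14:24146611-24146860, minus strand) and of B2M (chr15:44711267-44711516, plus strand).
PSME2: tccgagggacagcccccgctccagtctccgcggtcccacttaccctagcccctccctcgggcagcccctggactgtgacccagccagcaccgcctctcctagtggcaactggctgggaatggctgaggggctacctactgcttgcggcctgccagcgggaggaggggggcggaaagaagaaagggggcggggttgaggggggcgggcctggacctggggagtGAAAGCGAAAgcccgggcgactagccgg
B2M: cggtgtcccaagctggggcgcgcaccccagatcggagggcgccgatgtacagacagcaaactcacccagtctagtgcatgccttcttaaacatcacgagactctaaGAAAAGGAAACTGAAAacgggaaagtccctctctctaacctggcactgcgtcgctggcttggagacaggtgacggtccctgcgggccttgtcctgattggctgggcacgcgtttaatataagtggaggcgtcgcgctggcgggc
In PSME2 the match begins 28 bases before the start, and in B2M a pair of overlapping matches begin 144 and 138 bases before it. On either strand, 5 of the 9 antigen-processing genes held the repeat (B2M, PSME2, TAP1, TAP2 and TAPBP; 55.6%), as did 5 of 9 interferon-stimulated genes with a promoter in the table, against 3.06% of kept genes and 3.02% of all promoters. PSMB8, PSMB9, PSME1 and ERAP1 did not hold these letters in the windows searched.

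Ethanol-only genes at the upper end also included several with unlike starting levels. SERPINA1, the protease inhibitor alpha-1-antitrypsin, read 298, 1371, 504 and 496, which put the ethanol array above the other 3. CDH11, a mesenchymal cadherin, read 138, 484, 42.5 and 41.1, and was bright on the ethanol array alone. CMBL, a hydrolase, read 255, 908, 1166 and 1282, so that the ethanol array lay between the controls. TLR2, the receptor for bacterial lipoproteins, read 119, 643, 251 and 313, with a response difference of 2.12, and is not ethanol-only because acetaldehyde was 0.32 above its control. For HSD17B2, a steroid dehydrogenase (687, 2046, 1889 and 1676), control 1 was the only low array.

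Acetaldehyde-only genes were few, and most of them small in size. TNFSF10, the death ligand TRAIL, read 219 in control 1 and 229.8 with ethanol, then 275 in control 2 and 118 with acetaldehyde. SGK1, a kinase induced by glucocorticoids and osmotic stress, read 284, 325, 283 and 131. In both genes 3 arrays were alike and the acetaldehyde array was lowest, below the filter intensity of 155. FGFR3, a fibroblast growth factor receptor, read 220, 249, 404 and 238, so control 2 was the one array that stood apart. S100A7A read 39.9, 38.8, 255 and 156, and shares much of its sequence with S100A7.

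Upward, SUGCT, a glutarate CoA-transferase, read 63.2, 62.6, 98.8 and 189, and MFAP2, a microfibril protein, read 101, 115, 169 and 301. SUGCT reached the filter intensity on the acetaldehyde array alone, and so had to read higher with acetaldehyde. EPGN, a ligand of the epidermal growth factor receptor, read 358, 361, 261 and 435. CXCL8, the neutrophil chemokine interleukin-8, stood at 0.19 with ethanol and 0.60 with acetaldehyde. Dim values limit these genes, since control 2 was below the filter intensity in 10 of the 20. Of the 12 kept genes of the TRAIL pathway, TNFSF10 was the only member past 1.5-fold in either response, while the decoy receptor TNFRSF10D (0.48 and 0.46) and the receptor TNFRSF10A (0.32 and 0.28) were higher by like amounts. Of all kept genes 4.22% were at least 1.5-fold lower and 5.44% higher with ethanol, against 0.974% and 0.742% with acetaldehyde. At such shares a list of 12 holds few or none, so the count does not set this list apart. XIAP, another member, was kept through the acetaldehyde array alone.

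Small nucleolar and Cajal body RNAs, which guide the modification of ribosomal and spliceosomal RNA, were more often above than below control 2 with acetaldehyde. Of 34 kept H/ACA box RNAs 27 were higher with acetaldehyde and 11 with ethanol, with medians of 0.20 and -0.16. Of 51 C/D box RNAs the counts were 40 and 35, with medians of 0.39 and 0.16. All 11 Cajal body RNAs were higher with acetaldehyde (median 0.42) and 8 with ethanol (0.14). Over the class of 95, which leaves out the pseudogene SNORD13P3 counted with the C/D box RNAs, 15 were at least 1.5-fold higher with acetaldehyde and 13 with ethanol. Of all 10373 kept genes, 77 (0.742%) were at least 1.5-fold higher with acetaldehyde and 564 (5.44%) with ethanol. Any increase was seen in 5258 of them with acetaldehyde and 5991 with ethanol. Of the 95, 3 reached the filter intensity on the acetaldehyde array alone, and so had to read higher with acetaldehyde. Another 1 did so on the ethanol array alone and 1 on control 1 alone. Over the 83 kept by their mean level the medians were 0.03 with ethanol and 0.30 with acetaldehyde. The ethanol median of the class was 0.04, which became -0.0035 when the 4 arrays were quantile normalized together. SNORA14B read 193, 165, 227 and 428, and SNORA10 read 727, 535, 1068 and 1682, and both were start-matched with a response difference below -1.

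Opposed genes numbered 7. SLC7A11, the cystine transporter, read 1560.1 in control 1 and 689 with ethanol, then 578 in control 2 and 1003 with acetaldehyde. ASNS, asparagine synthetase, read 717, 411, 383 and 626. Both belong to the amino acid response driven by the transcription factor ATF4, and in both the controls differed in the direction of the ethanol difference, so the exposed values were closer than the responses. IL1B, the interleukin-1 beta cytokine, read 2168, 790.1, 599 and 926, and the antimicrobial RNASE7 read 282, 176, 150 and 228, in the same manner. ETNK2, an ethanolamine kinase, went the other way (304, 737, 1024 and 662), as did the lipopolysaccharide co-receptor CD14 (189, 287, 279 and 183). SPRR2A is the seventh.

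Genes of the ATF4 list were mostly lower with ethanol and divided with acetaldehyde. Of 26 kept genes 22 were lower with ethanol, while with acetaldehyde 11 were lower and 15 higher, with medians of -0.52 and 0.07. The response difference was -1 or lower for 5 genes (SLC7A11, STC2, ASNS, CHAC1 and TRIB3) and 1 or higher for 0. Of all kept genes 1.77% were at -1 or lower and 1.1% at 1 or higher, and 4378 of 10373 were lower with ethanol. STC2, a secreted glycoprotein hormone, differed by -1.33 and 0.32, and the pseudokinase TRIB3 by -0.93 and 0.21. CHAC1, which degrades glutathione, was lower with both, at -1.70 and -0.38. The tRNA synthetases AARS1 (-0.61 and 0.23), GARS1 (-0.55 and 0.23) and CARS1 (-0.58 and 0.31) were lower with ethanol and slightly above control with acetaldehyde. The list's median control gap was -0.81, and over its 10 start-matched genes the median response difference was -0.06. AARS1 was one of these, with 1750.4 in control 1 and 1516 in control 2, and read 1149.7 with ethanol and 1780.1 with acetaldehyde.

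The start regions of ASNS and AARS1 are printed because their transcripts were lower with ethanol and not with acetaldehyde. The acetaldehyde difference was 0.71 in ASNS, whereas in AARS1 it was within 0.25 log2 units of 0, so AARS1 is not an opposed gene. Capitals mark TGATGNAA or its reverse complement, the letters of an ATF4-type amino acid response element, in the 250 bases before the start of ASNS (GRCh38.p14, chr7:97872409-97872658, minus strand) and of AARS1 (chr16:70289507-70289756, minus strand).
ASNS: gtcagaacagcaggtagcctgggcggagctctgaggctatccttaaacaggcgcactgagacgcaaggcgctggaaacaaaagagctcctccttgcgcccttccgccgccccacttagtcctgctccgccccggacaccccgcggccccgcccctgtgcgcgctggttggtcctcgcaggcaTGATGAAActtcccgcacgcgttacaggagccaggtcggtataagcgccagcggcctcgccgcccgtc
AARS1: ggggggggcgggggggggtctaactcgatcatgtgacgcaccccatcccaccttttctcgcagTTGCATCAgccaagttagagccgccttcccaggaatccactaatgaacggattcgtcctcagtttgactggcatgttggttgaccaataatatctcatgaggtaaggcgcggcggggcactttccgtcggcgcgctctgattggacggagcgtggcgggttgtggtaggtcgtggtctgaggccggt
The match begins 68 bases before the start in ASNS, on the strand of the gene, and 187 bases before it in AARS1, on the opposite strand. In either orientation 6 of the 22 list genes with a promoter in the table held these letters (27.3%; AARS1, ASNS, CEBPG, CHAC1, GARS1 and SLC1A5), against 2.05% of kept genes and 3.14% of all promoters. Of these, SLC1A5, a glutamine transporter, had differences of only -0.14 and -0.23.

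Glucocorticoid targets were also split, in cultures that all received hydrocortisone. Of 15 kept genes 10 were higher with ethanol and 13 lower with acetaldehyde, with medians of 0.19 and -0.20, and 4 had a response difference of 1 or more against 0 of -1 or less. Of all 10373 kept genes 5991 were higher with ethanol and 5112 lower with acetaldehyde. Their shares were 1.1% at 1 or more and 1.77% at -1 or less. TSC22D3, the anti-inflammatory leucine zipper protein GILZ, read 767 in control 1 and 1615 with ethanol, then 1407 in control 2 and 1082 with acetaldehyde. PDK4, which inhibits pyruvate dehydrogenase, read 308, 801, 3829 and 2969. The values of PDK4 show a 12.4-fold control gap beside which both responses are small. HSD11B2, which inactivates cortisol, was lower with both compounds (-1.46 and -0.96), and the receptor gene NR3C1 was at 0.03 and -0.07. SGK1 and ANGPTL4, described above, are the other 2 members at 1 or more.

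Among the enzymes that handle the compounds the medians were small and a few genes differed. Of 32 listed genes of ethanol, aldehyde and acetate metabolism 17 were kept, with medians of 0.04 and -0.05. At least 1.5-fold from control were 4 genes with ethanol (1 lower, 3 higher) and 2 with acetaldehyde (both higher), and 2 had a response difference of -1 or lower. Of all kept genes 4.22% were at least 1.5-fold lower and 5.44% higher with ethanol, and 0.974% and 0.742% with acetaldehyde. A response difference of -1 or lower was found in 1.77% of them. The classical alcohol dehydrogenases ADH1A, ADH1B and ADH1C read 17.3 to 68.9 on the 4 arrays, and CYP2E1 read 65.8 to 90.6. ALDH2, the main mitochondrial acetaldehyde dehydrogenase, read 86.6, 82.2, 88.6 and 79.8. All of these lie below the filter intensity of 155. ADH5, the glutathione-dependent formaldehyde dehydrogenase, read 380.0, 532, 585 and 554, and the mitochondrial ALDH1B1 read 1006, 1541, 928 and 944. The latter was start-matched and above the other 3 arrays with ethanol only. ALDH3B2, a lipid-droplet aldehyde dehydrogenase, read 459, 75.5, 226 and 156. ALDH1A3, which makes retinoic acid, read 1174, 943, 376 and 716, but its other, dim probe set was at -0.04 and -0.11.

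Other stress and growth lists showed small medians with both compounds. For the unfolded protein list of 20 genes, 15 were higher with ethanol and 16 with acetaldehyde (medians 0.21 and 0.08). Of these genes SDF2L1 reached the filter intensity on the ethanol array alone, and so had to read higher with ethanol. The chaperone HSPA5 was at 0.68 and 0.31, and PDIA4, a disulfide isomerase, at 0.82 and 0.18. In the mitosis list 27 of 28 genes were higher with ethanol and 22 with acetaldehyde (0.42 and 0.12). Its median control gap was 0.84, and its median response difference was 0.34 over all 28 and 0.09 over 8 start-matched genes. Replication histones were lower with ethanol in 36 of 37 genes (-0.33) and with acetaldehyde 17 were lower and 19 higher (0.01). Their median control gap was -1.06, and their median response difference was -0.36 over all 37 and over 9 start-matched genes. Of the 37, 3 reached the filter intensity on control 1 alone. Metallothioneins, which bind zinc and copper, were higher with ethanol in 10 of 11 genes (0.41) and in 6 of 11 with acetaldehyde (0.03). Among the 11, MT1M reached the filter intensity on the ethanol array alone, and so had to read higher with ethanol. In the crosslink repair list, which covers lesions that acetaldehyde can cause, 0 of 17 genes reached 1.5-fold with either compound (0.16 and 0.07). Of all kept genes 4.22% were at least 1.5-fold lower and 5.44% higher with ethanol, against 0.974% and 0.742% with acetaldehyde. At such shares a list of 17 holds few or none, so the count does not set this list apart. In the same list 2 genes reached the filter intensity on the ethanol array alone and 1 on the acetaldehyde array alone. Across all 10373 kept genes, 5991 were higher with ethanol and 5258 with acetaldehyde, with medians of 0.05 and 0.00.

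**Figure D5:**
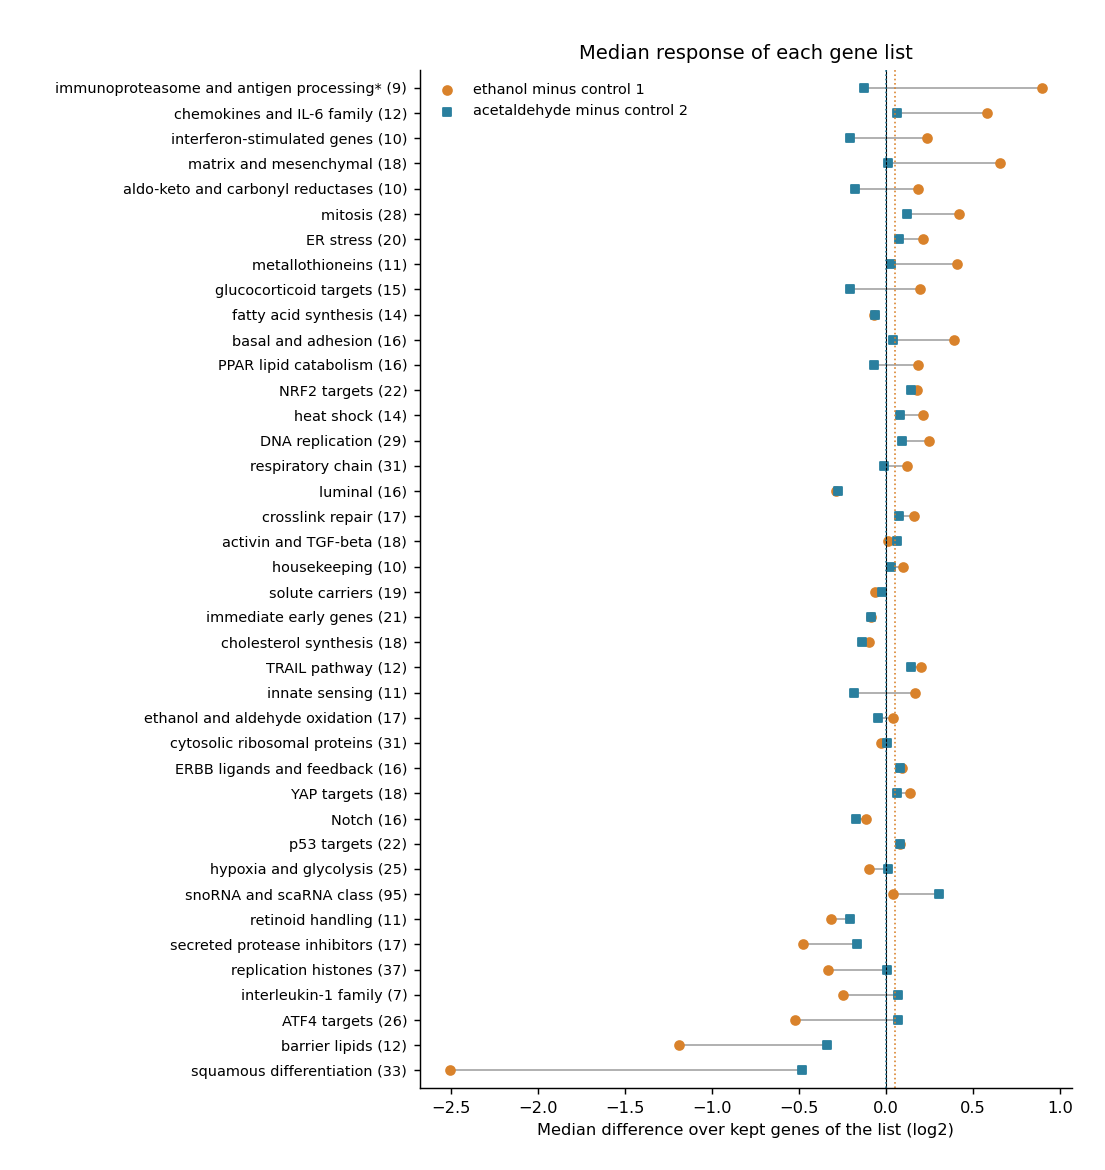
Median log2 difference of each gene list with at least 7 kept genes (number in brackets), circles for ethanol minus control 1 and squares for acetaldehyde minus control 2, ordered by the median response difference; dotted lines are the medians over all kept genes, and the asterisk marks the list drawn up after its values were seen. The squamous list is lowest with both compounds (-2.51 and -0.48), and the ATF4 and interleukin-1 lists lie on either side of 0.

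Barrier lipid genes and matrix genes lay at opposite ends with ethanol. Of 12 barrier lipid genes 11 were lower with ethanol and 10 with acetaldehyde. Of the 12, ACER1, ALOXE3, CERS3 and CYP4F22 reached the filter intensity on control 1 alone, and so had to read lower with ethanol. Over the 6 kept by their mean level the medians were -0.89 with ethanol and -0.22 with acetaldehyde. Over all 12 the median response difference was -1.08 beside a median control gap of -1.03, and over the 2 start-matched genes it was -0.04. The ceramide synthase CERS3 read 1063, 47.2, 132 and 68.9. The lipoxygenase ALOX12B was lower with both, at -1.88 and -0.63. Of 18 matrix and mesenchymal genes 13 were higher with ethanol and 9 with acetaldehyde, with medians of 0.65 and 0.01, and 4 had a response difference of 1 or more (CDH11, TGM2, TNC and MMP2). Of all kept genes 1.1% were at 1 or more. CDH11 was kept through the ethanol array alone, and so had to read higher with ethanol. TNC, the matrix protein tenascin C, read 186, 397, 120.0 and 110.5. TGM2, tissue transglutaminase, read 256, 1451, 1275 and 1919, and FN1, fibronectin, read 446, 1124, 5329 and 7363. Over the list's 7 start-matched genes the median response difference was -0.10, against 0.42 over all 18. For TGM2 and FN1 the control gaps of 2.32 and 3.58 exceeded or nearly matched the ethanol differences of 2.50 and 1.33.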

How the data were processed

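Each deposited value is a linear intensity for a probe set on an array, made by the authors with RMA, which the submitters' processing notes name; the software and whether arrays were normalized together are not stated there. Here log2 was taken without an offset and each exposed array was set against its own control. The platform annotation gave 1 symbol for 19460 of 33297 probe sets, several for 1754 and none for 12083, and only the first were used. Of these, 19429 matched RefSeq (GRCh38.p14), which altered 0 symbols. Among several probe sets of a gene (769 genes) the brightest on average stood for it. Genes whose maximum was under log2 7.28 (intensity 155), the median of gene-naming values, were left out. Array number limits the precision, and 0 columns belonged to other samples.

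Named genes were the lowest and highest response differences overall (12 each) and among start-matched genes (10 each), the shared genes with the largest smaller difference (12 lower, 10 higher), the 8 largest of each one-compound class and direction, the opposed genes, up to 6 members per list and the alcohol and aldehyde dehydrogenases; genes outside this rule, chosen after their values were seen, were EHF, TFPI, CXCL8, SNORA10, IL1R2, S100A7, the antigen-processing genes and the list members given to complete a group. The members and lists were chosen with earlier results of these data known. Promoters are 250 bases before RefSeq gene starts, and a gene counted if any of its starts held the letters. The code for the classes was tested on simulated data with large planted effects and noise far below the spread of the real differences. That checks the code alone and not how reliable the classes are. Python 3.11.15, numpy 2.4.6, pandas 2.3.3 and matplotlib 3.10.9 were used. Alternatives were other dim filters, an offset of 32, joint quantile normalization, averaged probe sets, exchanged controls and other thresholds.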

Additional observations from a re-analysis of the deposited data

Results flagged for a closer look

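With 1 array in each group, 7 genes had differences of at least 1.5-fold in opposite directions, and the difference between the responses was not tested. Higher with acetaldehyde and lower with ethanol were SPRR2A (response difference -3.75), IL1B (-2.09), SLC7A11 (-1.97), ASNS (-1.51) and RNASE7 (-1.28). The reverse held for ETNK2 (1.91) and CD14 (1.21). At a 2-fold limit 0 genes were opposed.

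Probe sets that name no gene carried signal outside the gene comparison. Of 3386 such probe sets bright on at least 1 array, 90 were at least 2-fold higher with acetaldehyde than in control 2 and 4 at least 2-fold lower, against 3 and 22 among 10892 bright probe sets naming 1 gene. With ethanol 100 of them were at least 2-fold higher and 18 lower. The response difference was -1 or lower for 51 of them (1.51%) and 1 or higher for 38 (1.12%), and their responses correlated with r = 0.489.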

How the results depend on the processing

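No paired analysis was possible because each group holds 1 array, and setting every exposed array against its own control is already the main comparison. Counts within 1.5 times of the main one, and log2 values within 1.5-fold of it, are taken as unchanged. Without the dim filter, acetaldehyde-only genes numbered 143 and start-matched genes at -1 or lower 36, and with a filter on the mean there were 22 acetaldehyde-only genes. With an offset of 32 there were 16 shared higher and 4 opposed genes and 9 start-matched genes at -1 or lower. A 1.5-fold limit gave 433 genes at the low and 539 at the high end of the response difference, so the balance between the ends turned. A 2-fold limit gave 16 shared lower, 2 shared higher, 151 ethanol-only, 2 acetaldehyde-only and 0 opposed genes. A band of 0.15 gave 389 ethanol-only and 17 acetaldehyde-only genes, and a tighter limit on the control gap left 9 and 16 start-matched genes at the low and high end. Joint quantile normalization and averaged probe sets moved no count by over 1.5 times; 57 of 59 shared lower and 23 of 28 shared higher genes kept their class under the former. Outside the exchange of controls, r lay between 0.315 and 0.419, and 6 of the named values moved by over 1.5-fold, all with the offset (BPIFC, FLG, MUC15, SPINK7, SPRR2A and SPTSSB).

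Exchanging the controls, so that each exposure is set against the other experiment's, puts the control gap into the responses with opposite signs. It gave r = -0.607, 1709 genes at the low and 1621 at the high end (370 and 429 start-matched), 415 acetaldehyde-only and 1563 opposed genes. The response difference turned sign for 36 of 67 named genes, namely A2ML1 (4.57), AMIGO2 (2.81), ASNS (0.30), ATP12A (4.56), BPIFC (4.29), CERS3 (2.46), CMBL (-2.69), CRCT1 (4.66), ETNK2 (-1.60), FLG (1.79), HSD17B2 (-1.17), IL1B (1.63), MCAM (-0.66), MUC15 (2.40), PDK4 (-5.53), POF1B (2.56), RNASE7 (0.54), SCNN1G (-1.25), SLC26A2 (-0.83), SLC6A14 (4.52), SLC7A11 (0.89), SPINK7 (3.5), SPRR1A (0.56), SPRR2A (3.02), SPRR3 (3.47), SPTSSB (2.04), TFPI2 (-5.31), TGM2 (-2.72) and TLR2 (-0.0428), and among genes under 2-fold in the main comparison CEL (-1.89), EPGN (0.19), FGFR3 (-0.81), PNMA6A (-0.49), S100A7A (-4.68), SLC9A9 (-0.45) and SNORD30 (0.78). The smaller difference turned for IL1RN (0.93), IL24 (-0.22), PLXDC2 (0.31) and THBS1 (-0.21). The median response difference turned sign for 23 of 40 lists. Among those described it became 1.82 for replication histones, 1.37 for the squamous, 1.10 for the barrier lipid, 0.87 for the interleukin-1, 0.83 for the ATF4, 0.10 for the small RNA, -0.10 for the metallothionein, -0.42 for the glucocorticoid, -1.04 for the matrix and -1.31 for the mitosis list, and that of the antigen-processing list was 0.65. Of 27 start-matched named genes 25 kept their sign and EPGN and PNMA6A turned, while AMOTL2 (-0.19) and CD14 (0.09) came near 0. The exchange acts only through the control gap, which is small by definition in start-matched genes. Most of the 27 were also named for a large response difference, so their kept signs largely follow from how they were picked.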

Other observations

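Some of the largest differences on these arrays belonged to neither response. IL1R2, the decoy receptor of interleukin-1, read 67.5 in control 1 and 59.4 with ethanol, then 2523 in control 2 and 2588 with acetaldehyde. The arrays of one experiment were alike and those of the other 37.4-fold higher, while the ethanol and acetaldehyde differences were -0.19 and 0.04. PPARGC1A, a coactivator of mitochondrial biogenesis, read 86.1, 108, 556 and 264, so its acetaldehyde difference of -1.08 started from a control 6.46-fold above control 1. In the interleukin-1 family IL1RAP, the shared accessory receptor, was near its control in both pairs (-0.25 and 0.16).

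Of 14 kept genes of fatty acid synthesis 8 were lower with ethanol and 9 with acetaldehyde, with medians of -0.07 and -0.07. FADS1 and FADS2, the desaturases that make long polyunsaturated fatty acids, were at 1.31 and 0.82 with ethanol and at 0.15 and 0.09 with acetaldehyde. ACSL4, which activates such fatty acids, was at 1.04 and 0.02, whereas the fatty acid synthase FASN, chosen after its values were seen, was at -0.14 and -0.46. Among ligands of the epidermal growth factor receptor, EREG was at -0.36 and 0.59 and TGFA at -0.77 and 0.13.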
